A study of Mus musculus with 4 samples.

Results

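Genes of the tripartite motif (TRIM) family were followed in microglia and macrophages sorted by CD11b, a surface integrin of these cells, from mouse corpus callosum and read cell by cell. The members were all genes whose symbol is Trim followed by a number, 46 of the 16342 genes in any of the 4 count tables. Of these, 35 had enough counts to be tested (of 11247 genes tested in all). They were read as 15 interferon-inducible members (13 tested) and 31 others (22 tested). All animals were male C57BL/6 mice, labelled as 13 weeks old, with no transgene named. The 2 libraries of week 0 came from untreated mice and the 2 of week 5 from mice given cuprizone, a copper chelator that kills oligodendrocytes and so strips myelin from this tract. The labels give neither a dose nor whether a library is 1 animal, and the spread on which p-values rest is that between libraries and may be technical.

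TRIM proteins are built of a RING domain, which gives most of them ubiquitin ligase activity and which a few lack, of B-box domains and a coiled coil, followed in many by a C-terminal domain that picks the target. Many members with a PRYSPRY C-terminal domain are induced by type I interferon and act in antiviral defence, by binding retroviral capsids or by tuning the sensors of foreign nucleic acid. Others serve constitutive tasks such as transcriptional repression, microtubule organisation and vesicle traffic. Microglia respond to type I interferon, and the comparison asks how this family differs between demyelinated and untreated tissue.

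The cells used were 926 and 905 at week 0 and 962 and 914 at week 5 (replicates 1 and 2, the order kept throughout), with 2353156, 4442246, 6484047 and 3259863 UMIs (unique molecular identifiers, 1 per captured transcript) and median cells of 1527, 3919, 6133.5 and 2495.5 UMIs. All 12 microglia markers were present in every library, summing to 32194, 37517, 19741 and 23750 CPM of total UMIs. Markers of border-associated macrophages summed to 290.6 to 873 CPM and those of monocytes to 22.5 to 152 CPM. Dendritic cell markers, which share Siglech with the microglia list, summed to 1339 to 2465 CPM. Neutrophil markers summed to 188 to 547 CPM and astrocyte markers to 172 to 309 CPM. Those of the oligodendrocyte lineage summed to 117 to 203 CPM and those of neurons to 14.0 to 50.1 CPM. Markers of choroid plexus or ependymal cells summed to 842 and 1.80 against 1982 and 2137 CPM. Those of T or NK cells stood at 8.79 to 12.2 CPM except in week 5 replicate 2, at 181 CPM. B cell markers summed to 299.6 and 283 against 166 and 199 CPM, from 2 or 3 of 6 markers, with Ms4a1 and Pax5 at 0. Endothelial and mural markers summed to 24.2 to 55.5 CPM, from 3 to 5 of 9 markers, with Cldn5, Ly6c1, Pdgfrb and Rgs5 at 0. Between libraries, 6 cell barcodes were shared.

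The interferon-inducible members are in large part neighbours. The 10 genes Trim6, Trim34a, Trim5, Trim12a, Trim34b, Trim12c, Trim30b, Trim30c, Trim30a and Trim30d lie in this order within 289.1 kb of chromosome 7 (GRCm38, GENCODE M21), from the start of Trim6 at 104218793 to the end of Trim30d at 104507849. Trim30a takes up chr7:104409025-104465193 on the minus strand and Trim34a chr7:104244457-104262234 on the plus strand. Some of them are alike in sequence also where transcription starts. To show this, and because an interferon-stimulated response element contains GAAA, any 2 bases and again GAAA (TTTC, any 2 bases and TTTC on the other strand), stretches with a match are printed here, read 5′ to 3′ on the gene's strand with the match in capitals. The sequences are those of RefSeq on GRCm38.p6, whose table held 35 of the 46 members. The first 4 are the 100 bases before the RefSeq start of the gene, and the other 3 are 30 bases around a match past that start. For some members, among them Trim12c and Trim12a, the RefSeq start differs from that of GENCODE.
Trim30a, chr7:104465194-104465293, minus strand: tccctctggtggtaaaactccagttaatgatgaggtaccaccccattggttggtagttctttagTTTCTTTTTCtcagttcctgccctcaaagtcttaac
Trim30d, chr7:104507850-104507949, minus strand: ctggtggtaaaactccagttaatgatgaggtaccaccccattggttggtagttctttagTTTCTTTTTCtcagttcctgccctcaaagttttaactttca
Trim5, chr7:104288107-104288206, minus strand: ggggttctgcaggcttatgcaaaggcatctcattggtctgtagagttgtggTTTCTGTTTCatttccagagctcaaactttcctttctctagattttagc
Trim12c, chr7:104353350-104353449, minus strand: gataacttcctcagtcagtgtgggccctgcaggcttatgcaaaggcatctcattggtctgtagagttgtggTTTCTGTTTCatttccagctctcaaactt
Trim12a, chr7:104315466-104315495, minus strand: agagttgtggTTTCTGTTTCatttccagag
Trim34a, chr7:104244457-104244486, plus strand: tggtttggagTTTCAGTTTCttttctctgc
Trim21, chr7:102565450-102565479, minus strand: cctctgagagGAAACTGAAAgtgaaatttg

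Aligned on the match without gaps, from 60 bases before it to 30 bases from its first base on, Trim30a and Trim30d were identical at 90 of 90 positions. Trim5 and Trim12a were likewise identical at 90 of 90, and Trim5 and Trim12c at 76 of 90. The base just past this window, printed above, differed between Trim30a and Trim30d. In windows of 250 bases before to 50 bases after the start, searched on both strands with overlaps allowed, 8 of 14 interferon-inducible members held the pattern: Trim5, Trim12a, Trim12c, Trim21, Trim26, Trim30a, Trim30d and Trim34a. In Trim21 and in Trim26 a second match overlapped the first. Of the 21 other members with a window, 1 held it (Trim2). For some members of both lists the only window lay inside the annotated gene. The share over all genes of the table was 3.99% (1079 of 27025). A match is a description of letters, not a site shown to be bound.

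Trim30a and Trim34a rose at week 5, by 2.23-fold and 2.29-fold, and no member passed the test in the other direction. The test was edgeR's quasi-likelihood test on UMIs summed per library, with p-values adjusted over all genes tested by Benjamini-Hochberg and a threshold of 0.05. Levels are CPM, UMIs per 1e6 of the library size after TMM scaling. Among all genes tested, 2.69% were called, 274 upward (2.44%) and 28 downward (0.249%). Of the 13 interferon-inducible members tested, 2 rose, 7 had an unadjusted p under 0.05 (all with positive log2 fold changes, against 9.49% of all genes upward), and 11 had a positive log2 fold change (48.6% of all genes). Both week 5 libraries lay above both week 0 libraries for 8 of the 13, against 21% of all genes, and below them for 0 (22.2% of all genes). The median log2 fold change was 0.64 over the 13 and -0.01 over all genes tested.

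Trim30a, whose protein is known to restrain Toll-like receptor signalling by promoting loss of the adaptors TAB2 and TAB3, had week 0 levels of 99.6 and 106.8 CPM and week 5 levels of 245 and 215.8 CPM. All week 5 values were above all week 0 values, and the replicates of each week lay close together. The log2 fold change was 1.16 (SE 0.23, adjusted p = 0.0245). Trim34a had 38.4 and 29.9 CPM in the untreated and 64.7 and 91.0 CPM in the cuprizone libraries. Its groups did not overlap either, and the week 5 libraries differed more from each other than for Trim30a. The log2 fold change was 1.19 (SE 0.24, adjusted p = 0.0310). In microglia-like cells alone the log2 fold changes were 1.18 for Trim30a (adjusted p = 0.0178) and 1.20 for Trim34a (0.0204). Microglia-like cells were 93.4% to 99.4% of a library's cells, so leaving out the rest could change these values little. The call of Trim30a was lost when week 0 replicate 1 (adjusted p = 0.178) or week 0 replicate 2 (0.202) was left out, with library size as the only scaling (0.0529) or with cells thinned to 1000 UMIs (0.0950), and its adjusted p ran from 5.38e-05 to 0.202 over the alternatives. That of Trim34a was lost without week 0 replicate 2 (adjusted p = 0.188) or with library size only (0.0663), in a range from 9.46e-05 to 0.188.

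**Figure D1:**
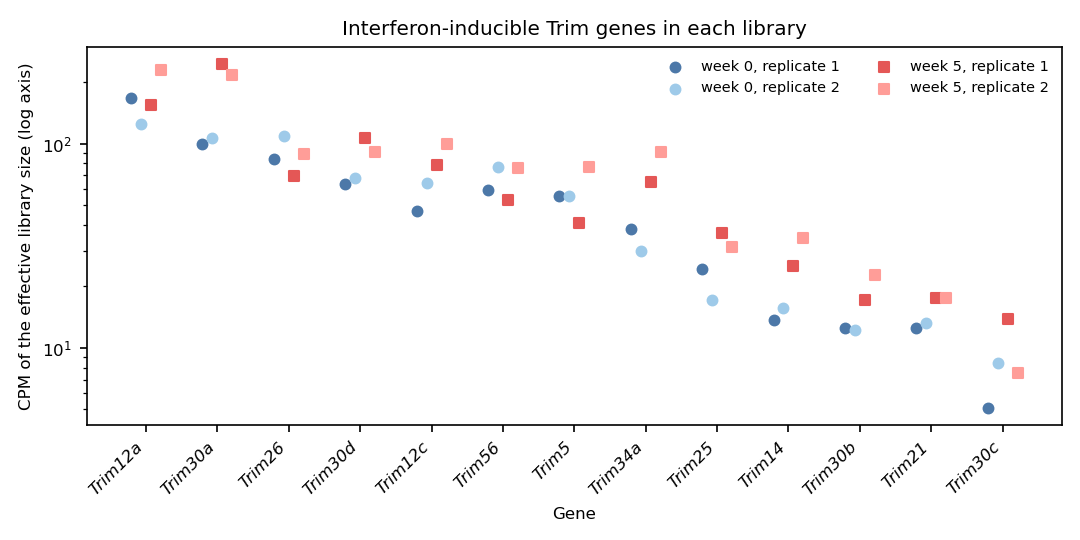
Level of each of the 13 interferon-inducible Trim genes tested, in CPM of the effective library size on a log axis, with 1 point per library (circles week 0, squares week 5). For Trim30a and Trim34a both squares lie above both circles, while for Trim26, Trim56 and Trim5 squares and circles overlap.

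The other Trim30 genes had smaller differences. Trim30d had 63.1 and 67.9 against 106.7 and 91.3 CPM (log2 fold change 0.59, SE 0.20, adjusted p = 0.196). Trim30b stood at 12.5 and 12.2 against 17.1 and 22.7 CPM (0.68, SE 0.27, adjusted p = 0.293). For both genes the groups did not overlap, but neither passed. Trim30c, with 5.10 and 8.41 against 13.8 and 7.56 CPM, overlapped between the weeks (0.64, SE 0.41, adjusted p = 0.590). Without the cluster led by Apoc1, Fabp5 and Cst7, described further on, Trim30b (adjusted p = 0.0450) and Trim30d (0.0458) passed among microglia-like cells, and Trim30d also passed without week 5 replicate 2 (0.0231).

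Trim30a and Trim30d, identical around the match printed above, stood in a different proportion in the 2 weeks. The ratio of Trim30a to Trim30d UMIs within a library was 1.58 (254 to 161 UMIs, 95% counting interval 1.29 to 1.93) and 1.57 (508 to 323, 1.37 to 1.81) at week 0. At week 5 it was 2.30 (1330 to 579, 2.08 to 2.54) and 2.36 (714 to 302, 2.06 to 2.71). This ratio needs no scaling between libraries, and each week 5 interval lay above both week 0 values. It went from 1.58 ± 0.0034 to 2.33 ± 0.0474 (SD, n = 2 each; exact permutation test, two-sided p = 0.333, the smallest that 2 against 2 allows). The pair was chosen after the values were seen. The shared sequence touches the counting of Trim30d more than that of Trim30a: of the 50-base words in the last 300 bases of their coding transcripts, 13.5% of those of Trim30d and 0% of those of Trim30a occur in another gene's transcripts.

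Of the Trim5 and Trim12 genes, relatives of the primate factor that blocks retroviral capsids, Trim12c had 47.1 and 64.6 CPM in the untreated and 78.3 and 99.1 CPM in the cuprizone libraries. Its groups did not overlap, and it did not pass (log2 fold change 0.65, SE 0.23, adjusted p = 0.219). Trim12a stood at 167.4 and 124.7 against 153.8 and 228.8 CPM (0.39, SE 0.27, adjusted p = 0.634). Trim5, the neighbour identical to Trim12a around the match printed above, stood at 55.7 and 55.3 against 41.1 and 76.8 CPM (0.07, SE 0.28, adjusted p = 0.953). Both overlapped between the weeks, with the week 5 libraries on either side of the week 0 values for Trim5. Its log2 fold change was -0.11 with library size as the only scaling and -0.39 without week 5 replicate 2. In Trim5, 41.6% of the 50-base words at the transcript end also occur in other genes, Trim12c among them, in Trim12c 16.7% occur in Trim5 and predicted genes, and in Trim34a 18.3% occur in Trim34b, so these counts are uncertain to that extent. Trim6 had 2 UMIs in all cells used and Trim34b had 3, all at week 5, too few to compare.

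Outside this block, the members had unequal differences, and none of the 5 passed. Trim14, an adaptor at the mitochondrial antiviral protein MAVS, stood at 13.7 and 15.8 against 25.2 and 34.5 CPM. Both week 5 values exceeded both week 0 values, with a log2 fold change of 0.99 (SE 0.26), but the adjusted p was 0.0835. Trim14 passed without week 5 replicate 1 (0.00663), with no filter on low counts (0.00908) and in microglia-like cells without the Apoc1-led cluster (0.0402). Trim25, the ubiquitin ligase of the RNA sensor RIG-I, stood at 24.3 and 17.2 against 36.5 and 31.1 CPM (0.73, SE 0.25, adjusted p = 0.197, or 0.0254 without week 5 replicate 2). Trim21, a cytosolic receptor for antibody-coated virus, stood at 12.5 and 13.2 against 17.5 and 17.5 CPM (0.44, SE 0.26, adjusted p = 0.543). With each cell thinned, where few of its UMIs remain, the log2 fold change of Trim21 was -0.31 (SE 0.51).

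Trim26 and Trim56 had no positive difference. Trim26, encoded in the MHC region of chromosome 17, had 83.9 and 108.9 against 69.6 and 89.5 CPM (log2 fold change -0.29, SE 0.23, adjusted p = 0.692). Trim56, known to act on the DNA-sensing adaptor STING, stood at 59.2 and 76.7 against 53.0 and 75.9 CPM (-0.09, SE 0.24, adjusted p = 0.930). Their groups overlapped. The 95% interval of the log2 fold change was -0.80 to 0.22 for Trim26 and -0.63 to 0.45 for Trim56.

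**Figure D2:**
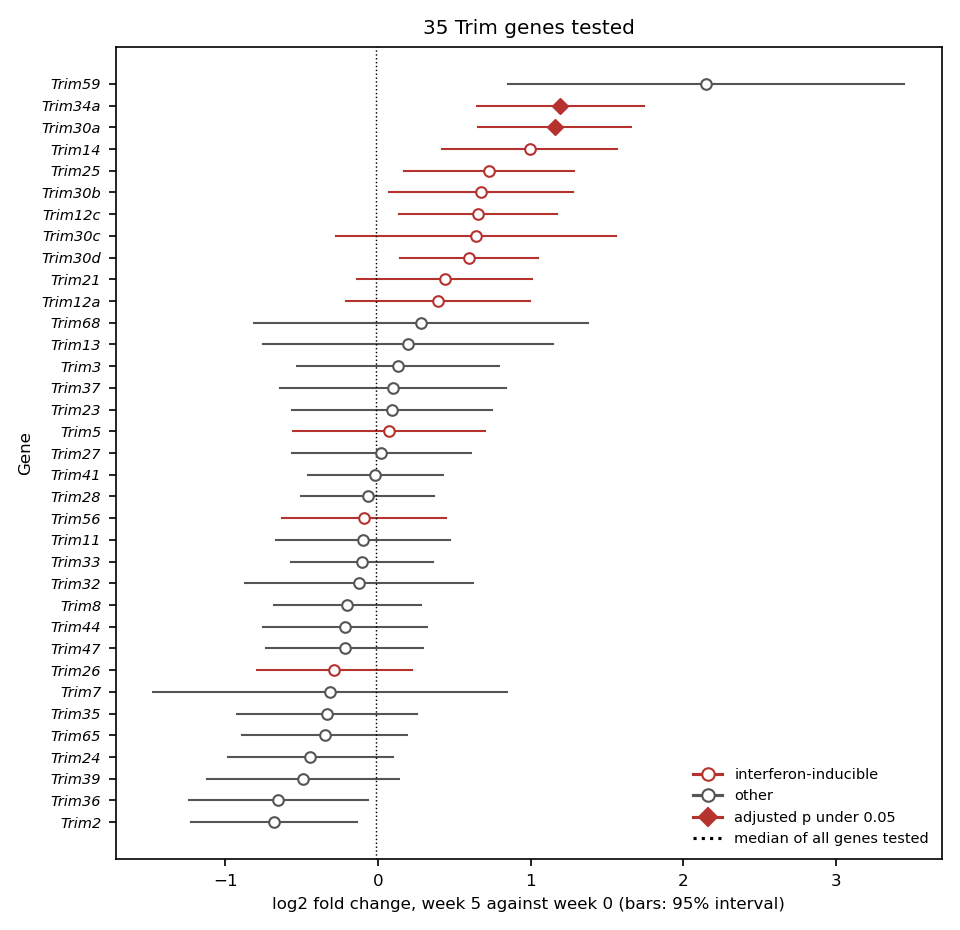
Log2 fold change at week 5 against week 0 of the 35 Trim genes tested, with 95% intervals from edgeR; red marks the interferon-inducible list, filled diamonds an adjusted p under 0.05, and the dotted line the median of all genes tested (-0.01). Apart from Trim59, the 10 highest values are interferon-inducible members, and Trim5, Trim56 and Trim26 lie among the others.

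None of the 22 other members tested passed. The count was 0 with edgeR, with DESeq2 and with limma-voom. At an unadjusted p under 0.05 edgeR gave 1 upward (9.49% of all genes) and 2 downward (4.25% of all genes). Their median log2 fold change was -0.12. Both week 5 libraries lay below both week 0 libraries for 5 of the 22, near the 22.2% of all genes, and above them for 1, against 21% of all genes. The count was 3 downward without week 5 replicate 2 (Trim2, Trim35 and Trim36) and 1 upward with no filter on low counts (Trim59).

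Among the co-repressors, Trim28, the partner of KRAB zinc finger proteins that silences retroelements, was one of the steadiest members, at 51.4 and 52.1 against 49.2 and 49.6 CPM. Its log2 fold change was -0.07 (SE 0.20, 95% interval -0.51 to 0.37, adjusted p = 0.936). Its relative Trim33 stood at 38.0 and 44.4 against 37.9 and 39.0 CPM (-0.11, SE 0.21), and Trim24 at 32.2 and 43.5 against 25.1 and 31.4 CPM (-0.44, SE 0.24, adjusted p = 0.495). Only for Trim33, of these 3, did the groups overlap.

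The lowest log2 fold change of the family was that of Trim2, a ligase for neurofilament light chain known from neurons. Its levels were 78.8 and 70.2 against 36.7 and 56.8 CPM (-0.68, SE 0.24, adjusted p = 0.223). Trim36 followed, at 31.8 and 36.6 against 17.3 and 26.9 CPM (-0.65, SE 0.26, adjusted p = 0.293). In both, week 5 replicate 1 was the lowest library, as it was for 10 of the 12 other members of highest level. Without week 5 replicate 2 they passed, with log2 fold changes of -0.98 (adjusted p = 0.00549) and -0.95 (0.0207), as did Trim35 with -0.71 (0.0435). Trim35 stood at 112.5 and 122.2 against 69.6 and 117.9 CPM, again with week 5 replicate 1 apart from the other 3 libraries (-0.33, SE 0.26, adjusted p = 0.693). Trim65, a ligase of the RNA sensor MDA5, was likewise lowest in that library (47.1 and 52.4 against 31.5 and 47.5 CPM; -0.35, SE 0.24). Its gene overlaps Trim47 on the same strand, so reads of the pair are uncertain.

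The remaining members of high level differed little. Trim44, which carries a ubiquitin-specific protease type zinc finger in place of a RING, stood at 121.2 and 135 against 90.4 and 130.9 CPM (-0.22, SE 0.24). Trim8, a regulator of cytokine signalling, stood at 97.3 and 124.1 against 93.4 and 99.7 CPM (-0.20, SE 0.22). Trim41 kept between 51.3 and 54.5 CPM in all 4 libraries (-0.02, SE 0.20, 95% interval -0.46 to 0.42). For Trim44 and Trim8 as for Trim41 the groups overlapped. Trim27, known from endosomal traffic, stood at 29.8 and 45.6 against 44.4 and 32.6 CPM (0.02, SE 0.26), and Trim47 at 35.3 and 29.4 against 25.1 and 30.5 CPM (-0.22, SE 0.23). The 10 others tested had log2 fold changes from -0.49 to 2.15 and SEs from 0.26 to 0.58.

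**Figure D3:**
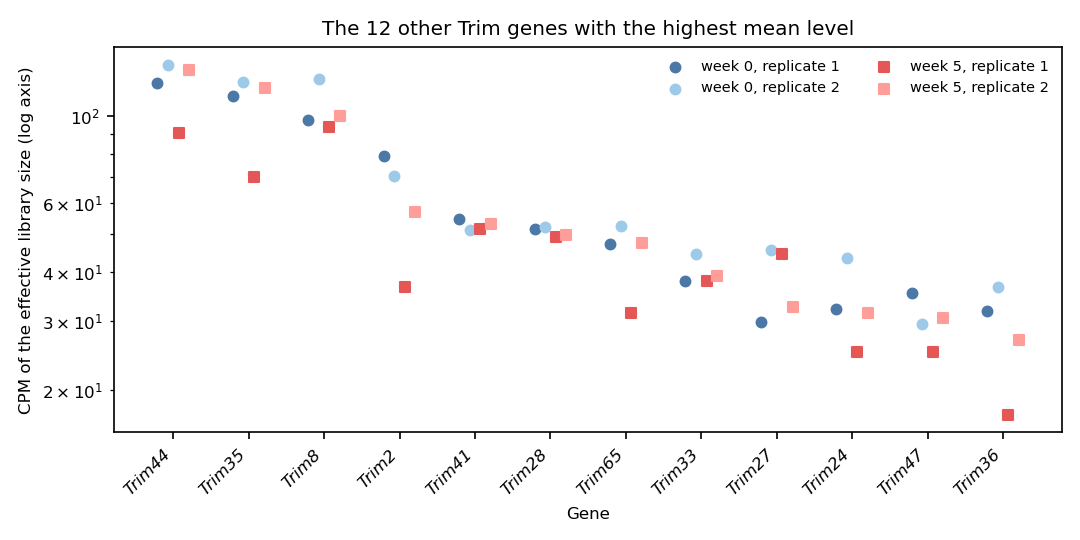
Level of the 12 other Trim genes with the highest mean, in CPM of the effective library size on a log axis, with 1 point per library (circles week 0, squares week 5). The dark squares of week 5 replicate 1 are the lowest points for 10 of the 12 genes (not for Trim27 and Trim41), by little for Trim28 and Trim33.

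Expressed as shares of the family's own UMIs, which needs no scaling between libraries, the interferon-inducible members held more in both week 5 libraries than in both week 0 libraries. They held 44.5% (1741 of 3909 Trim UMIs; exact 95% binomial interval 43.0% to 46.1%) and 43.5% (3337 of 7663; 42.4% to 44.7%) at week 0. At week 5 they held 57.7% (5009 of 8683; 56.6% to 58.7%) and 56.4% (3581 of 6346; 55.2% to 57.7%). The groups were 44.0 ± 0.701% and 57.1 ± 0.890% (SD, n = 2 each), a difference of 13.0 percentage points. The exact permutation test gave a two-sided p of 0.333, the smallest that 2 against 2 allows. Since the list was also made with earlier results known, no conclusion is drawn from this test. Without Trim30a and Trim34a, the pair that passed, the share of the remaining list was 39.0% and 38.3% at week 0 and 47.5% and 48.1% at week 5. The summed level of the list was 683 and 702 against 923 and 1082 CPM of the effective library size, and that of the others 850.2 and 909.6 against 677 and 836 CPM. Relative to total UMIs the list stood at 739.9 and 751 against 773 and 1099 CPM, and the others at 921 and 974 against 567 and 848 CPM. The scaling thus decides how much of the shift reads as a gain of one list or a loss of the other. With library size as the only scaling, the median over all genes moved to -0.24 (log2), and the medians of the lists lay 0.62 above and 0.10 below it, against 0.66 above and 0.10 below with TMM.

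**Figure D4:**
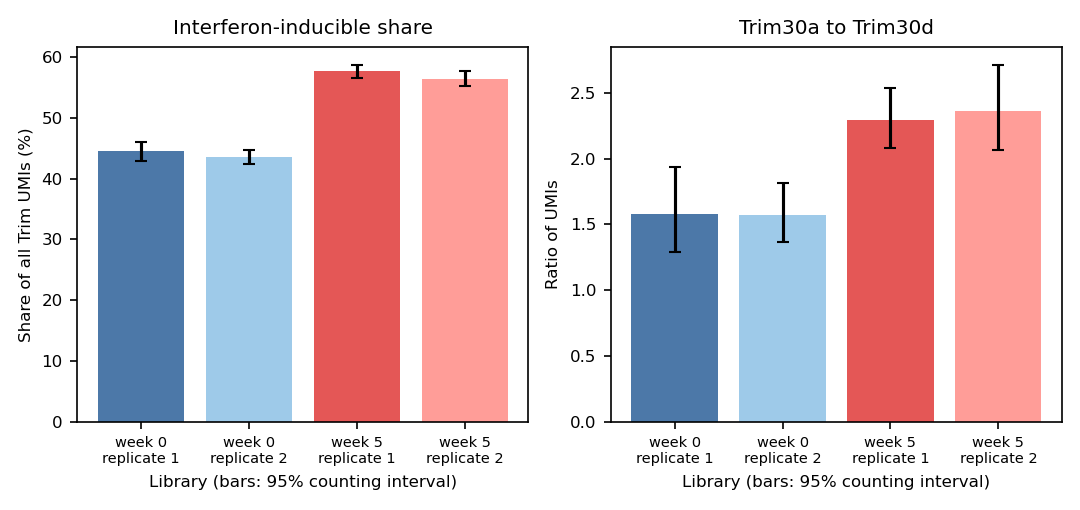
Left, share of all Trim UMIs held by the interferon-inducible members (%); right, ratio of Trim30a to Trim30d UMIs; 1 bar per library with its 95% counting interval, both axes from 0. Both week 5 bars lie above both week 0 bars in each panel, at 57.7% and 56.4% against 44.5% and 43.5% on the left.

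More cells had a Trim30a UMI at week 5, also at equal depth. The shares were 20.7% (192 of 926 cells) and 32.4% (293 of 905) at week 0 and 55.2% (531 of 962) and 42.3% (387 of 914) at week 5. With each cell thinned to 1000 UMIs, which left out shallower cells, they were 10.8% (84 of 781; exact 95% binomial interval 8.67% to 13.1%) and 10.2% (85 of 835; 8.21% to 12.4%) at week 0. At week 5 they were 16.9% (152 of 901; 14.5% to 19.5%) and 17.7% (143 of 809; 15.1% to 20.5%). For Trim34a the thinned shares were 5.38% and 2.87% against 6.10% and 11.4%. The share that free RNA gives was not measured.

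The cells fell into 11 clusters, of which 8 were microglia-like, with 93.4% to 99.4% of a library's cells. Clusters were made from all genes of these cells, so their levels are given without a test, as CPM of total UMIs for clusters with at least 30 cells of a library. In the cluster led by Gm43221 and mitochondrial genes, which had such cells in all 4 libraries and median cells of 1035 to 1363 UMIs, Trim30a had 121.5 and 65.2 against 292 and 295 CPM. Trim34a stood there at 67.6 and 40.8 against 148 and 168 CPM. In the cluster led by Ddit4 and Rtp4, Trim30a stood at 74.8 CPM in week 0 replicate 1 and at 183 and 231 CPM at week 5. In the cluster led by G530011O06Rik, Fscn1 and Ecscr it stood at 128 and 118 CPM at week 0 and at 185 CPM in week 5 replicate 2. Within each of these 3 clusters the week 5 values of Trim30a thus exceeded those of week 0. Some week 0 values rest on few UMIs. Trim30a had 14 in the Ddit4-led cluster in week 0 replicate 1. In week 0 replicate 2 of the Gm43221-led cluster, Trim30a had 8 and Trim34a had 5.

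Among the week 5 clusters, the level of the family was lowest in the one led by Apoc1, Fabp5 and Cst7. There the interferon-inducible members summed to 590 and 238 CPM in week 5 replicates 1 and 2, and the others to 356 and 314 CPM. Cells of this cluster were deep in week 5 replicate 1 (median 13505 UMIs, 215 cells holding 44.4% of the library's UMIs) and not in replicate 2 (4930.5 UMIs, 42 cells, 7.23%). Trim30a stood there at 190.9 and 59.4 CPM. In the shallow cluster led by Lilrb4a and Lpl (median 1431 and 1393 UMIs), the list summed to 1365 and 1565 CPM and the others to 920 and 1020 CPM. Border-associated macrophage-like cells had 671 and 933 CPM of the list and 483 and 541 CPM of the others at week 5. At week 5 the list summed to 1365 to 1875 CPM in the 3 clusters of shallow cells (led by Gm43221, B430010I23Rik and Lilrb4a) and to 238 to 1125 CPM in the others, and the part of depth in this difference was not tested. In the week 5 libraries the list held 52.9% to 63.3% of the Trim UMIs of a cluster, except in the Apoc1-led cells of replicate 2 (43.1%, 56 of 130 UMIs). In the week 0 libraries it held 33.7% to 47.3%.

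**Figure D5:**
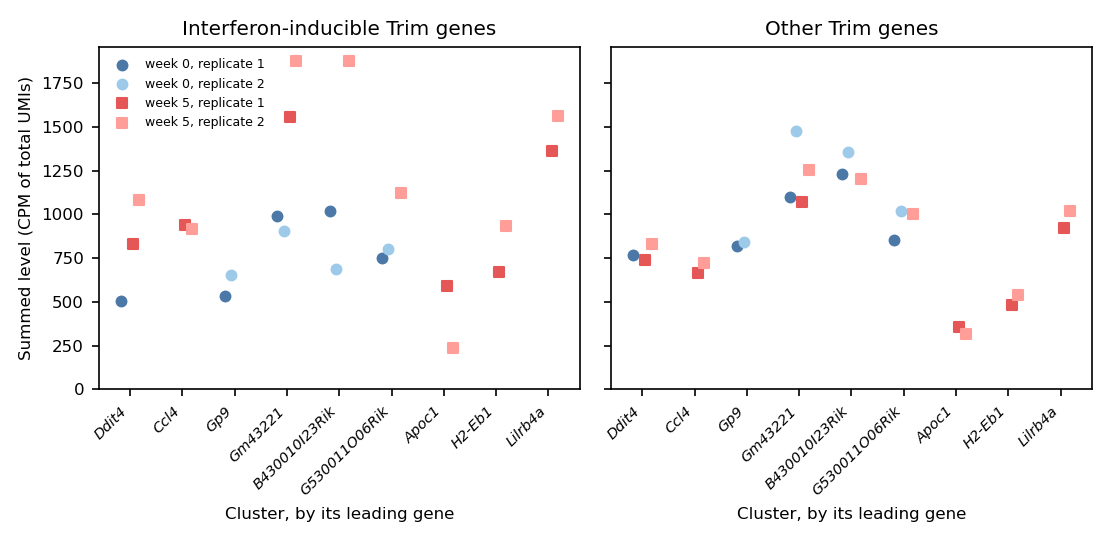
Summed level of interferon-inducible (left) and other (right) Trim genes per cluster and library, in CPM of total UMIs, for clusters with at least 30 cells of a library; clusters are named by their first leading gene. Squares (week 5) lie above circles (week 0) on the left in the clusters that hold both, and the Apoc1-led cluster is the lowest on the right.

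The wider pathway was read from a list of partners of antiviral TRIM proteins, of which 21 genes were tested. Of these 7 rose, against 2.44% of all genes, and 0 fell, against 0.249% (9 upward and 0 downward at an unadjusted p under 0.05, against 9.49% and 4.25%), with a median log2 fold change of 0.23. Among them were Irf7, Isg15, Dhx58, Stat2, Irf9 and Ikbke. Irf7, the factor that amplifies interferon production, stood at 5.88 and 5.47 against 61.3 and 52.6 CPM (log2 fold change 3.33, SE 0.26, adjusted p = 0.000274). Isg15, a ubiquitin-like protein, stood at 7.84 and 15.1 against 124.1 and 63.8 CPM (2.97, SE 0.38, adjusted p = 0.00316). Dhx58, a helicase of the RIG-I family, had a log2 fold change of 1.68 (SE 0.31), Stat2 one of 1.22 (SE 0.21) and Irf9 one of 0.91 (SE 0.20). Irf9 passed narrowly (adjusted p = 0.0468), and its call was not followed over the alternatives. The kinase gene Ikbke had 1 UMI in the untreated and 46 in the cuprizone libraries. Per UMI of effective library size this is 38.5 times as many (95% counting interval 6.57 to 1552), 47.1 times in week 5 replicate 1 and 24.3 times in replicate 2. Ikbke had too few counts to be tested with thinned cells, without week 5 replicate 1, or in microglia-like cells without the Apoc1-led cluster. Without week 0 replicate 2, Stat2 (adjusted p = 0.0800) and Ikbke (0.201) did not pass, nor did Dhx58 with thinned cells (0.408).

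Of the RNA sensors of the RIG-I family, Dhx58 alone passed. Ifih1, which encodes MDA5, did not (log2 fold change 0.99, SE 0.25, adjusted p = 0.0775), without overlap between the weeks. RIG-I itself (Ddx58) stood at 35.7 and 34.3 against 53.0 and 40.2 CPM (log2 fold change 0.42, SE 0.22, adjusted p = 0.467), Mavs at 18.4 and 21.9 against 22.3 and 15.4 CPM (-0.09, SE 0.27) and Tab2, a target of the Trim30a protein, at 218 and 232 against 185 and 206 CPM (-0.20, SE 0.23). Neither the receptor gene Ifnar1 (0.21, SE 0.20) nor Ifnar2 (0.23, SE 0.25) passed. Tmem173, which encodes STING, stood at 360 and 413 against 254 and 282 CPM (-0.53, SE 0.25, adjusted p = 0.405), without overlap and without passing.

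TRIM proteins whose genes carry another name did not move as 1 group. Pml, the interferon-induced organiser of nuclear bodies, stood at 16.9 and 13.0 against 27.4 and 26.3 CPM (log2 fold change 0.87, SE 0.25, adjusted p = 0.116). Mid1, a microtubule-bound ligase, stood at 49.8 and 90.2 against 36.5 and 64.7 CPM (-0.50, SE 0.33, adjusted p = 0.604). Cmya5, known as a large muscle protein, fell from 20.8 and 28.0 CPM to 9.03 and 10.6 CPM (log2 fold change -1.34, SE 0.28, adjusted p = 0.0317). It did not pass with DESeq2 (0.0656), without week 0 replicate 2 (0.209), with thinned cells (0.633) or in microglia-like cells without the Apoc1-led cluster (0.0584), and its adjusted p ran from 0.000156 to 0.633. Pml passed without week 5 replicate 2 (0.0207) and with no filter on low counts (0.0368).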

How the data were processed

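The authors deposited UMI counts per gene and cell barcode, whole numbers that were not normalized, 1000 barcodes per library; per the labels' protocols the droplet kit reads the transcript's end and CD11b-positive live cells were sorted. Per the submitters' processing notes, STAR, Cell Ranger 3.0.0, Seurat 4 and the build mm10 were used, without their roles. How barcodes and genes were chosen and whether counting used strand: not given in the sources used here. A gene not listed in a table was taken as 0.

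Barcodes under 500 genes or over 10% mitochondrial UMIs were removed (272 of 4000), scrublet in scanpy 1.11.5 removed 21 doublets (0.563%), and 3707 cells were clustered (2000 variable genes, 30 components, 15 neighbours, Leiden resolution 1). A cluster took the name of the class with the highest summed markers; a class other than microglia also needed 2 of the 10 leading genes. This rule was set after the clusters were seen. UMIs were summed over all cells of a library, because this needs no cluster names, and tested with edgeR 4.0.16 (R 4.3.3; quasi-likelihood, TMM, its own filter, Benjamini-Hochberg); the test was tried on simulated data. DESeq2 1.42.0 and limma 3.58.1 (voom) were alternatives. SE is the absolute log2 fold change over the square root of the F statistic of its test. Named genes were the interferon-inducible members tested, other members that passed, the 12 others of highest level, the 6 partners with the largest called changes (1 of them is not reported here), and TRIM proteins with other symbols; further genes were chosen after their values were seen. The members and lists were chosen with earlier results of these data known. Intervals of shares and of count ratios cover counting error only. Those of log2 fold changes come from the edgeR fit and so also carry the spread between libraries.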

Additional observations from a re-analysis of the deposited data

How the results depend on the processing

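Over all genes tested 302 passed, against 918 with no filter on low counts, 501 when all libraries had the same ceiling of 2996 genes per cell, 184 with cells thinned to 1000 UMIs, and 265 to 1341 with 1 library left out (1341 without week 5 replicate 2, 538 without week 0 replicate 1). Of the Trim genes 2 passed, against 0 with library size as the only scaling, 4 with no filter, 5 in microglia-like cells without the Apoc1-led cluster (chosen after seeing the data), 1 when thinned and 0 to 7 with 1 library left out. The interferon-inducible count of 2 became 0, 5 and 1 with library size only, without that cluster and when thinned, and 0 to 4 with 1 library left out. The count of other members, 0, became 1 with no filter and 0 to 3 with 1 library left out.

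The interferon-inducible median of 0.64 was 0.39 with library size only, which split all calls 291 upward to 89 downward (76.6% upward against 90.7%). Over all genes 380 of 11247 passed in that setting, and 357 of 10768 in microglia-like cells without the Apoc1-led cluster. The difference of 13.0 percentage points in the share of Trim UMIs lay between 12.4 and 13.6 over 9 alternatives, all chosen after seeing the data. Thinned, the shares of cells with a Trim30a UMI were 10.8%, 10.2%, 16.9% and 17.7%. The wider list added no tested gene.

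Some log2 fold changes of genes that did not pass changed sign, and the cause was not tested. With library size only, Trim5 was -0.11 and Trim27 -0.22. When thinned, Trim21 was -0.31, Trim56 0.16, Trim44 0.0004 and Trim27 -0.21. Without the Apoc1-led cluster, Trim56 was 0.086, Trim41 0.024, Trim28 0.0012, Trim33 0.0052 and Trim27 -0.056. With the common ceiling, Trim56 was 0.067 and Trim41 0.0003. With 1 library left out, the ranges were -0.39 to 0.47 for Trim5, -0.32 to 0.15 for Trim56, -0.46 to 0.033 for Trim44 and -0.71 to 0.0086 for Trim35. They were -0.059 to 0.018 for Trim41, -0.21 to 0.018 for Trim33, -0.24 to 0.38 for Trim27 and -0.92 to 0.013 for Mid1.

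With the replicate number as a block, 379 genes passed, among them Trim30a (adjusted p = 0.0376) and Trim34a (0.0187), and the counts of Trim genes stayed at 2 and 0. Same-numbered libraries did not deviate together (r = -0.02 across 8656 genes, which are not independent replicates), so the number is not taken as a pairing.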

Other observations

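Trim59, a membrane-anchored member outside the interferon-inducible list and named after its values were seen, had the highest log2 fold change of the family. It had 3 and 6 UMIs at week 0 and 35 and 15 at week 5, or 1.18 and 1.26 against 6.45 and 4.53 CPM. The log2 fold change was 2.15 (SE 0.58, adjusted p = 0.0967), and per UMI of effective library size it had 4.65 times as many counts (95% counting interval 2.26 to 10.7), 5.23 times in week 5 replicate 1 and 3.68 times in replicate 2. At equal depth 1 of 781 and 2 of 835 cells had a Trim59 UMI at week 0 and 4 of 901 and 3 of 809 at week 5.

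The 11 members that were not tested had at most 32 UMIs in all cells used. Trim9 and Trim17 had none, Trim69 had 1 and Trim67 had 2. Trim62 had 32 and Trim45 had 27, the latter 3 and 7 at week 0 and 12 and 5 at week 5.

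The interferon-response pattern (GAAA, any 2 bases, GAAA, on either strand), searched in the same windows, was held by 36 of the 201 genes that rose at week 5 and had a window (17.9%), and by 344 of all 8754 genes tested with one (3.93%). Among the interferon-inducible members without a match were Trim25, Trim30b, Trim30c and Trim56, and no window was used for Trim14. The one window of Trim30b lies inside the gene, so the bases before its annotated start were not searched. The same holds for some members of the other list, among them Trim28, Trim44 and Trim47.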
